A study of Mus musculus with 24 samples.

Results

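Loss of Lyn was compared in dendritic cells that had been stimulated with CpG-B. The comparison used 6 of the 24 arrays of the series, chosen by their sample titles: 3 arrays labelled Lyn-KO with CpG-B and 3 labelled WT with CpG-B. The cells were bone marrow cells of C57BL/6 background grown with human Flt3 ligand at 100 ng/ml for 9 days, a culture that gives plasmacytoid and conventional dendritic cells together. CpG-B, a synthetic DNA with unmethylated CpG motifs, was added at 150 nM for 6 h. RNA of the whole culture was hybridised to 1-colour Agilent mouse arrays. The comparison was set beside 2 others of the same kind, each with 3 arrays against 3: Lyn-KO against WT without stimulation, and cells lacking both Irf5 and Lyn (DKO) against cells lacking Irf5 (Irf5-KO), both with CpG-B. The labels name the knockouts without the allele. They give replicates by number and do not say whether these were separate animals or cultures, so p-values measure the spread between these samples, which may be technical.

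Lyn is a Src-family tyrosine kinase of myeloid cells and B cells. It phosphorylates inhibitory receptors, which then recruit phosphatases, and it is known both to start and to restrain signalling in immune cells. CpG DNA is sensed in the endosome by Tlr9, which signals through Myd88 to NF-kB and to interferon regulatory factors such as Irf5 and Irf7. In plasmacytoid dendritic cells this route leads to type I interferon, and in conventional dendritic cells to inflammatory cytokines.

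The share of spots well above background, controls left out, was 46.0% to 51.0% on these 6 arrays, and replicate arrays correlated at 0.992 to 0.994 (across features, which are not independent replicates). The array number limits the precision. Values are log2 signals relative to each array's 75th percentile, so 0 is that percentile, and a change is the mean of Lyn-KO minus that of WT ± the standard error of the limma fit (n = 3 arrays each). Lyn itself lay at 2.29, 2.17 and 2.19 in the WT arrays and at -0.23 in each of the 3 Lyn-KO arrays. It was lower in Lyn-KO by 5.44-fold (-2.44 ± 0.0869, limma adjusted p = 5.82e-12) and stayed well above background in the knockout arrays. The sources used here do not say whether its probe lies in the deleted part. The median change of all features was 0.05.

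Of 20209 features tested, limma called 5084 (25.2%) at a Benjamini-Hochberg adjusted p under 0.05, 2818 higher in Lyn-KO (13.9%) and 2266 lower (11.2%). At least 2-fold, 395 were higher (1.95%) and 485 lower (2.4%), 880 in all, against 463 with normexp and quantile normalization together. The groups of 3 arrays did not overlap for 8199 features (40.6%). These shares are the background against which the counts of the gene groups below are to be read. Named genes passed an adjusted p of 0.05 in limma unless a p is printed.

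All 14 measured genes of type I and III interferons were called higher in Lyn-KO, against 13.9% of all features. In RNA of a whole mixed culture, fewer cells of a type and less RNA per cell cannot be told apart. Of 24 markers of plasmacytoid dendritic cells, the main source of alpha interferon, 14 were called higher in the same comparison and 2 lower, and their part in the interferon result was not tested. These 14 interferon genes had a median change of 2.80, with 2.50, 2.63 and 3.24 between the arrays of slides 1, 2 and 3, beside 0.05 for all features. Ifnb1, the interferon beta gene, lay at 2.47, 2.51 and 1.97 in WT and at 4.99, 5.05 and 5.07 in Lyn-KO. Every Lyn-KO array was above every WT array, the spread was wider in WT (SD 0.300 against 0.0455), and the change was 6.59-fold (2.72 ± 0.25, adjusted p = 2.09e-07). Ifna4 lay at -0.68, -0.93 and -1.40 in WT and at 2.12, 2.24 and 2.23 in Lyn-KO, a change of 3.20 ± 0.364. Ifna5 lay at 2.97, 2.92 and 2.35 in WT and at 5.47, 5.54 and 6.40 in Lyn-KO, a change of 3.06 ± 0.27. Here 1 Lyn-KO array stood above the others, and it was the array of slide 3.

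The remaining alpha interferons moved by similar amounts. The changes were 2.60 ± 0.151 for Ifna1, 2.80 ± 0.288 for Ifna2, 2.74 ± 0.421 for Ifna7, 2.80 ± 0.405 for Ifna11 and 2.79 ± 0.224 for Ifna12. They were 2.80 ± 0.419 for Ifna13, 2.81 ± 0.184 for Ifna14, 3.15 ± 0.225 for Ifna16 and 2.82 ± 0.17 for Ifnab. The alpha interferon genes are near-identical copies of each other, so a probe named for 1 of them may also bind transcripts of its neighbours, and they are not separate measurements. Ifnl3, a type III interferon, changed less: WT arrays were at 3.21, 2.87 and 2.52, Lyn-KO arrays at 3.57, 3.53 and 3.45, and the change was 0.65 ± 0.122, a call that ended with only the 2 groups in the fit (adjusted p = 0.0514). Ifnk changed by 0.74 ± 0.19, a call that ended without replicate 3 of the WT arrays (0.56). That array was the lowest of its group for each of the 14 genes, and without it the median change was 2.57.

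**Figure D1:**
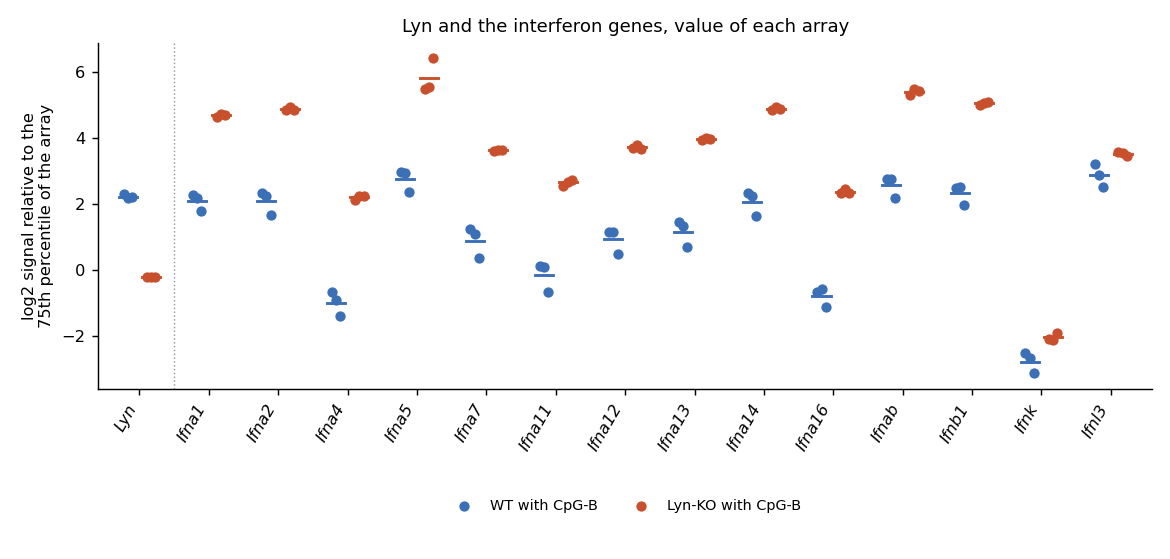
Log2 signal relative to the 75th percentile of the array for Lyn and the 14 measured interferon genes in the 3 WT (blue) and 3 Lyn-KO (red) arrays with CpG-B; points are arrays in the order of slides 1 to 3 and lines are group means. For Lyn the Lyn-KO arrays are all below the WT arrays, and for each interferon gene they are all above.

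The upstream regions of the interferon genes with the greatest changes are shown because Irf factors, which act below Tlr9, bind repeated GAAA elements, and the one for Ccl8 is shown as the cytokine gene with the greatest fall that had an entry. Each is the 250 bases before the start of the gene, from RefSeq (GRCm38.p6), in the direction of the gene. Capitals mark GAAANNGAA on either strand. Ifna4 lies at chr4:88841566-88841815 (plus strand), Ifna16 at chr4:88676857-88677106 (minus strand), Ifna5 at chr4:88835275-88835524 (plus strand) and Ccl8 at chr11:82114935-82115184 (plus strand).
Ifna4: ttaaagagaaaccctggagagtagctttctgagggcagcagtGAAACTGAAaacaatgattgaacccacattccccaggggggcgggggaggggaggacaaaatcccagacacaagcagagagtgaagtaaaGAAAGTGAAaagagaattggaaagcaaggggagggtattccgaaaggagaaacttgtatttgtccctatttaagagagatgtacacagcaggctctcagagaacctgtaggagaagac
Ifna16: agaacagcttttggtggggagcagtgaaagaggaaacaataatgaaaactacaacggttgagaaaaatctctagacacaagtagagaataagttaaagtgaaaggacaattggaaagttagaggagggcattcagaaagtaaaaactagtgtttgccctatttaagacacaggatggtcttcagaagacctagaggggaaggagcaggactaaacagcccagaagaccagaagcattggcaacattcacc
Ifna5: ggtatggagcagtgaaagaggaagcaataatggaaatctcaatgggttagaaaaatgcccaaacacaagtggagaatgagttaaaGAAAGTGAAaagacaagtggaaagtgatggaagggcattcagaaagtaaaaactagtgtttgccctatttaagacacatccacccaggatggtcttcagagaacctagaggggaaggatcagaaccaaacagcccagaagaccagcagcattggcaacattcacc
Ccl8: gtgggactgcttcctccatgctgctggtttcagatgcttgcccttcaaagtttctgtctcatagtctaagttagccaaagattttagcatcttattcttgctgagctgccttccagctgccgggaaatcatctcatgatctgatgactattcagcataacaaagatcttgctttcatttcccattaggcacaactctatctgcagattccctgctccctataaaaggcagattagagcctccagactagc

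The Ifna4 window held the paired motif at 2 places and the Ifna5 window at 1, while these letters were not in the windows of Ifna16 and Ccl8. Over all 13 interferon genes with a window, 8 held it (61.5%), against 7.13% of 32851 windows of the same length in the table. Most of the 13 are alpha interferon genes, which are copies of each other, so their windows are not independent counts. The paired motif was in 5.93% of the windows of genes called higher in Lyn-KO and in 6.85% of those called lower. Both were near the share for all tested genes (6.62%). Further motifs were searched on both strands, and none of them was in the 4 windows shown. GGGANTTTC, a form of the NF-kB site, was in 0.979% of windows of genes called higher and 1.29% of those called lower (0.883% of tested genes). TGANTCA, the AP-1 site, was in 5.09% and 4.42% (4.70%), and GAGGAAGT, a PU.1 site, in 3.23% and 2.70% (2.60%). The PU.1 and IRF letters can overlap each other, and a match is a description of the letters only.

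Genes that interferon induces did not move with the interferon genes. Of 60 measured interferon-stimulated genes, 3 were called higher and 1 lower, and the median change was -0.01. The members called higher were Cd69, an early activation marker, by 0.56 ± 0.136, Bst2, a membrane tether of plasmacytoid cells, by 0.27 ± 0.0835, and Ifitm3, an antiviral membrane protein, by 0.24 ± 0.0785. Ifih1, a sensor of viral RNA, was lower, at -0.27 ± 0.0918. The calls of Bst2, Ifitm3 and Ifih1 ended when 1 array was left out, without replicate 3 of WT or of Lyn-KO among others. All 60 of these genes were called higher with CpG-B in WT cells, with a median of 4.25, where 68.5% of all features were called, 31.2% higher and 37.2% lower. Without stimulation the same list was lower in Lyn-KO, with 1 called higher (1.83% of all features), 32 called lower (2.75%) and a median of -0.53.

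Among 10 measured ligands of the tumour necrosis factor family, 5 were called higher and 1 lower, with a median change of 0.37. Tnfsf15, a ligand that costimulates T cells, lay at 3.09, 3.09 and 2.36 in WT and at 5.11, 5.13 and 5.24 in Lyn-KO. Lta, the lymphotoxin alpha gene, lay at 1.51, 1.39 and 0.92 in WT and at 3.52, 3.54 and 3.62 in Lyn-KO. For both genes the groups were well apart, with changes of 2.31 ± 0.235 and 2.29 ± 0.182, and the WT array of slide 3 was the lowest, as for the interferons. Tnf lay at 5.08, 5.09 and 4.69 in WT and at 5.99, 6.05 and 6.15 in Lyn-KO, a rise of 2.16-fold (1.11 ± 0.165). Cd70, the ligand of Cd27, was higher by 0.71 ± 0.122. Tnfsf9, which costimulates through 4-1BB, went the other way (-0.82 ± 0.0931), from 6.10, 5.97 and 5.90 in WT to 5.20, 5.20 and 5.09 in Lyn-KO.

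Of 21 measured interleukin and growth factor genes, 5 were called higher and 2 lower, and the median change was 0.16. Il1b, the interleukin 1 beta gene, lay at 5.70, 6.07 and 6.22 in WT and at 6.84, 7.17 and 7.37 in Lyn-KO, a change of 1.13 ± 0.142. Il18, a cytokine that acts on NK cells and T cells, was higher by 0.80 ± 0.0971, and Inhba, which encodes an activin subunit, by 1.07 ± 0.251. Il34, a ligand of the macrophage growth factor receptor, lay at -1.65, -1.29 and -0.86 in WT and at -3.58, -3.07 and -3.06 in Lyn-KO, and was lower (-1.97 ± 0.176). Il16, a chemoattractant of CD4+ cells, was lower as well (-1.12 ± 0.104). Il6, an inflammatory cytokine, was at 7.62, 7.58 and 7.50 in WT and at 7.74, 7.87 and 8.0 in Lyn-KO. Its arrays did not overlap, but the change of 0.31 ± 0.121 did not pass the test (adjusted p = 0.0726). Il10, an inhibitory cytokine, was at 2.43, 2.36 and 2.59 in WT and at 2.37, 2.35 and 2.24 in Lyn-KO, so its groups overlapped (-0.14 ± 0.188, adjusted p = 0.63).

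Chemokine genes were mostly higher among those called. Of 27 measured, 13 were called higher and 2 lower, with a median change of 0.63 (0.34, 0.54 and 0.90 by slide). Xcl1, which attracts cross-presenting dendritic cells, lay at 1.68, 1.79 and 1.02 in WT and at 4.19, 3.93 and 4.26 in Lyn-KO, a change of 2.63 ± 0.276. The neutrophil attractants Cxcl1 and Cxcl2 were higher by 2.07 ± 0.362 and 1.96 ± 0.352. Cxcl2 went from -2.31, -2.23 and -2.48 in WT to -0.63, -0.31 and -0.21 in Lyn-KO. Ccl1, which attracts through Ccr8, was higher by 2.04 ± 0.509, with WT arrays as far apart as 0.77, 0.28 and -0.77. Ccl22, which attracts regulatory T cells, was higher by 1.49 ± 0.242, Ccl6 by 1.59 ± 0.116, Ccl9 by 1.16 ± 0.0823 and Cx3cl1, the fractalkine gene, by 1.38 ± 0.113. Ccl3, an inflammatory chemokine, rose from 7.44, 7.30 and 7.30 to 8.28, 8.37 and 8.41, and Ccl2, a monocyte attractant, rose by 0.73 ± 0.191. Pf4, a platelet chemokine, was lower (-1.15 ± 0.183). Ccl8 was lower too (-1.22 ± 0.406, adjusted p = 0.0342), but this call ended without any 1 of the 6 arrays, with changes between -1.30 and -1.15.

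Of 34 measured genes of endosomal Toll-like receptors and their signalling, 8 were called higher and 2 lower, with a median of 0.17. Tlr9 rose from 2.77, 2.79 and 2.64 to 3.00, 2.93 and 2.95 (0.23 ± 0.0578, adjusted p = 0.0063), a call that ended with normexp and quantile normalization together (0.22, adjusted p = 0.0635) and with only the 2 groups in the fit (0.23, adjusted p = 0.0615). Unc93b1, which carries Tlr9 to the endosome, was higher by 0.37 ± 0.0617, and Slc15a4, a lysosomal transporter needed for Tlr9 responses, by 0.41 ± 0.0762. Tlr12 rose most in the list, from 2.30, 1.87 and 1.62 to 3.49, 3.05 and 3.17 (1.30 ± 0.149).

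Of 21 measured NF-kB subunit and regulator genes, 4 were called higher and 8 lower (median -0.06). Tnfaip3, the ubiquitin-editing inhibitor A20, fell from 6.75, 6.62 and 6.69 in WT to 5.95, 5.96 and 5.93 in Lyn-KO (-0.74 ± 0.0775). Tnip2, a partner of A20, fell from 3.76, 3.61 and 3.75 to 2.81, 2.72 and 2.60 (-1.0 ± 0.0783), and the related Tnip3 was lower (-0.67 ± 0.107). Nfkbiz, an atypical inhibitor that also helps to induce a part of the NF-kB targets, was higher by 0.98 ± 0.142, from 3.73, 3.64 and 3.42 to 4.77, 4.66 and 4.31. Of 11 genes of the IRF family, 3 were called higher and 1 lower (median 0.09). Irf8, needed for plasmacytoid cells and type 1 conventional dendritic cells, rose from 6.94, 6.74 and 6.53 to 7.58, 7.47 and 7.57 (0.81 ± 0.091). Irf4, a factor of type 2 conventional dendritic cells and plasma cells, was lower (-0.64 ± 0.0974), from 3.61, 3.57 and 3.60 to 3.11, 2.96 and 2.78. Irf5 was higher by 0.33 ± 0.0897, a call that ended without replicate 3 of WT (0.27, adjusted p = 0.0655).

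Of 22 measured AP-1 and EGR genes, which are induced early by mitogen-activated kinases, 2 were called higher and 8 lower (median -0.20). Dusp4, a phosphatase that switches off these kinases, was lower (-1.62 ± 0.178), from 0.05, -0.07 and 0.39 in WT to -1.34, -1.49 and -1.65 in Lyn-KO. Fosl2, an AP-1 subunit, was lower by its brighter probe (-2.09 ± 0.166), while its other probe was at 0.30 and not called, so the 2 probes of this gene disagree.

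**Figure D2:**
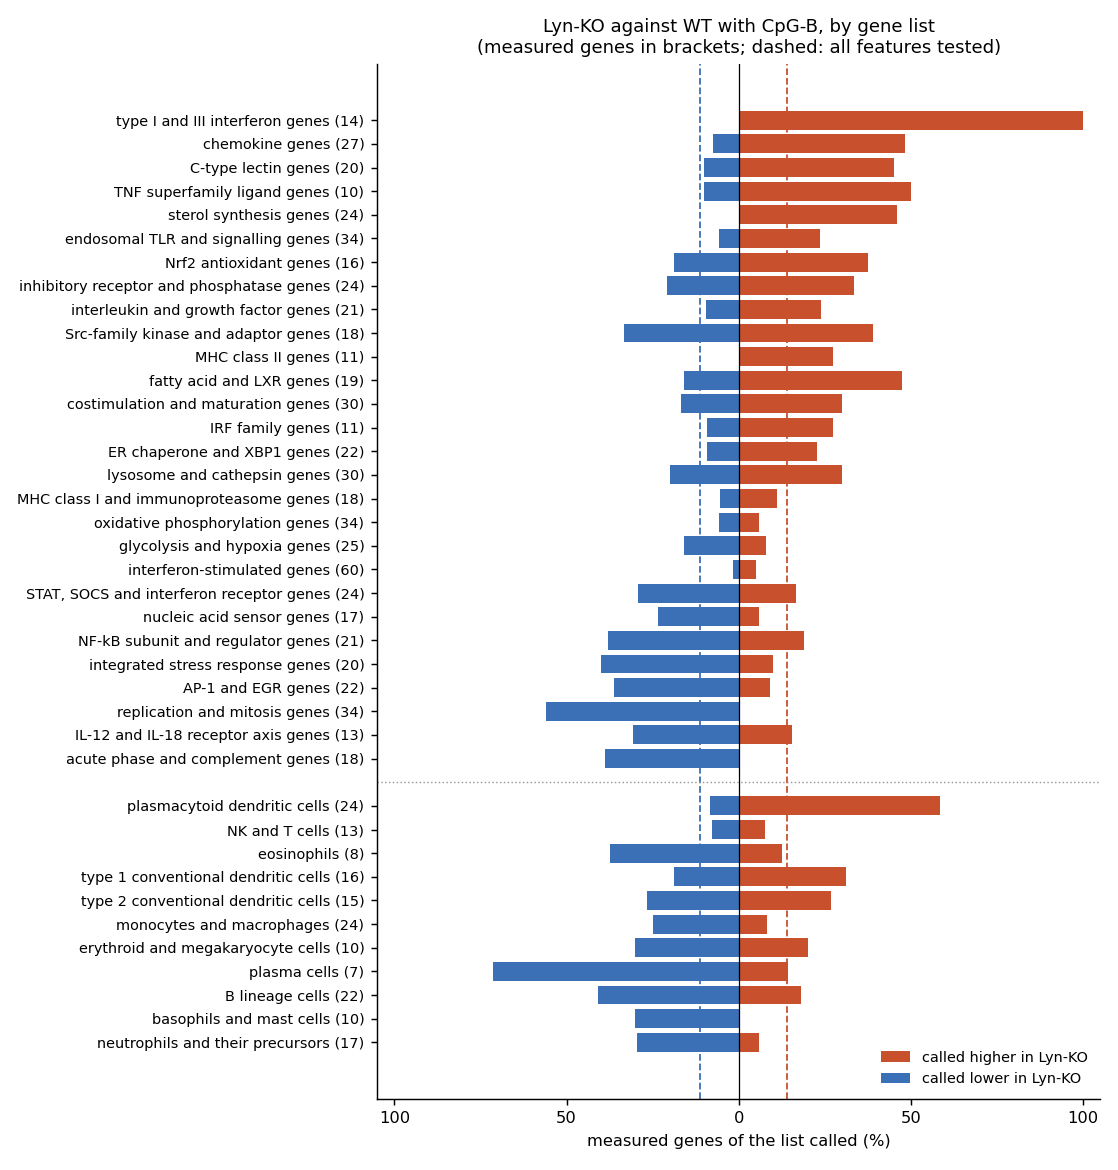
Share of the measured genes of each list (percent) that limma called higher (red, right) or lower (blue, left) in Lyn-KO against WT with CpG-B, with the number measured in brackets. Dashed lines mark 13.9% higher and 11.2% lower over all 20209 features, and the cell type markers stand below the dotted line; all 14 interferon genes are higher, and no replication gene is.

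The partners of Lyn moved in both directions. Of 18 measured genes of Src-family kinases and their adaptors, Lyn included, 7 were called higher and 6 lower (median 0.13). The related kinase Fgr fell from 3.42, 3.47 and 3.54 to 2.57, 2.57 and 2.56 (-0.91 ± 0.0774), and Fyn was lower (-0.44 ± 0.06). Syk, which binds phosphorylated activating receptors, was higher by 0.34 ± 0.0666, and the adaptor Blnk by 0.73 ± 0.0636, from 6.57, 6.52 and 6.52 to 7.30, 7.30 and 7.21. Of 24 inhibitory receptors and phosphatases, 8 were called higher and 5 lower (median 0.16). Fcgr2b, the inhibitory IgG receptor, fell from 2.71, 2.81 and 2.97 to 1.55, 1.78 and 1.76 (-1.13 ± 0.123), and Pirb, an inhibitory receptor for class I molecules, from 7.11, 7.12 and 7.12 to 6.40, 6.44 and 6.42 (-0.70 ± 0.0561). Lair1, an inhibitory collagen receptor, was higher by 1.08 ± 0.108. Ptpn6, the phosphatase SHP-1 that such receptors recruit, rose from 5.42, 5.39 and 5.34 to 5.88, 5.89 and 5.91 (0.51 ± 0.0526).

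Among 30 costimulation and maturation genes, 9 were called higher and 5 lower (median 0.11), with changes from -2.60 to 0.71. The genes named in this paragraph were all lower, although more genes of the list were called higher than lower. They do not stand for the list. Slamf1, a self-binding receptor that CpG-B raised in WT cells by at least 27.0-fold, lay at 0.95, 0.88 and 1.08 in WT and at -1.52, -1.60 and -1.76 in Lyn-KO, a 6.05-fold difference (-2.60 ± 0.204). An "at least" fold sets a group that is not well above background on any array to the lowest signal that was. Pdcd1lg2, the checkpoint ligand PD-L2, was lower (-1.14 ± 0.129), Il2ra, the high-affinity interleukin 2 receptor subunit, was lower (-0.85 ± 0.116), and Cd86, a ligand of CD28, was lower (-0.53 ± 0.0735). Tbx21, the factor T-bet, fell from 0.47, 0.33 and 0.63 to -0.90, -1.19 and -1.29 (-1.60 ± 0.156).

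Acute phase and complement genes were 0 higher and 7 lower of 18 measured (2 higher at an unadjusted p under 0.05 in limma), with a median of -0.35. Saa3, a serum amyloid gene, lay at 6.97, 7.07 and 7.17 in WT and at 4.88, 5.11 and 4.87 in Lyn-KO (-2.11 ± 0.521). Cfb, a factor of the alternative complement pathway, lay at 4.84, 4.85 and 4.75 in WT and at 2.70, 2.63 and 2.58 in Lyn-KO (-2.17 ± 0.451). Within these groups the arrays lay close together, and the larger standard errors come from the fit, which pools the spread of all 8 groups. Saa1 was lower (-1.92 ± 0.189), as were Lcn2, an iron-binding protein of neutrophils and macrophages (-1.60 ± 0.223), and Hp, the haptoglobin gene (-1.44 ± 0.153). Outside this list, Hamp, the iron hormone hepcidin, lay at 1.29, 1.48 and 1.63 in WT and at -2.37, -2.83 and -2.54 in Lyn-KO. It was 16.5-fold lower (-4.05 ± 0.412). CpG-B raised Hamp in WT cells by at least 38.1-fold.

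Metabolic genes differed by pathway. Of 20 genes of the integrated stress response, 2 were called higher and 8 lower (median -0.19), and the lower ones included the enzymes of serine synthesis. Phgdh, the first of them, fell from 3.36, 3.08 and 3.54 to 2.49, 2.13 and 2.02 (-1.11 ± 0.123), Psph was lower (-1.07 ± 0.0914), and Psat1 was lower (-0.59 ± 0.0775). Of 24 sterol synthesis genes, 11 were called higher and none lower (0 lower at an unadjusted p under 0.05 in limma too, median 0.28), among them Dhcr7, the last enzyme to cholesterol, by 0.56 ± 0.0938. Of 19 fatty acid and LXR genes, 9 were called higher and 3 lower (median 0.11). Lpl, lipoprotein lipase, rose from 0.17, 0.14 and 0.44 to 1.99, 2.32 and 2.16 (1.91 ± 0.146), and Ch25h, which makes 25-hydroxycholesterol, rose by 1.75 ± 0.231. Elovl6, which elongates saturated fatty acids, fell from 0.99, 0.96 and 1.02 to -0.33, -0.50 and -0.56 (-1.45 ± 0.0735), and Scd1, which desaturates them, was lower (-1.65 ± 0.197). Of 16 Nrf2 targets, 6 were called higher and 3 lower (median 0.17), with Srxn1, a redox enzyme, higher by 1.47 ± 0.11 and Gclc, of glutathione synthesis, lower (-1.37 ± 0.0996). Osgin1, an oxidative stress gene, was lower (-1.28 ± 0.168).

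Replication and mitosis genes were 0 higher and 19 lower of 34 measured, with a median of -0.21, and 0 were higher at an unadjusted p under 0.05 in limma. Rrm2, a subunit of ribonucleotide reductase, fell from 3.02, 3.23 and 3.54 to 2.27, 2.31 and 2.21 (-1.0 ± 0.115), and Mki67, the Ki-67 antigen, from 4.74, 4.85 and 4.84 to 4.42, 4.37 and 4.44 (-0.40 ± 0.0732).

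Markers of several cell types were measured beside these groups. The 24 markers of plasmacytoid dendritic cells had a median change of 0.54 (0.46, 0.43 and 0.60 by slide). Their summed linear signal, relative to the 75th percentile of each array, was 1060 to 1160 in WT and 1420 to 1560 in Lyn-KO. Ly6d, a surface protein of their progenitors, lay at 7.45, 7.21 and 7.18 in WT and at 8.24, 8.18 and 8.32 in Lyn-KO (0.97 ± 0.098). The plasmacytoid lineage factors Tcf4 and Spib were higher by 0.69 ± 0.0862 and 0.71 ± 0.082, and Atp1b1, a sodium pump subunit, by 1.72 ± 0.14. Siglech, a defining surface lectin of these cells, was not called by its brighter probe (0.24 ± 0.124, adjusted p = 0.174), with overlapping groups, while its other probe was higher by 0.72 and called. Tspan13 was lower (-0.98 ± 0.0681). Without stimulation, 5 of the 24 were called higher in Lyn-KO and 0 lower (2 lower at an unadjusted p under 0.05 in limma), with a median of 0.23.

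B lineage markers were 4 higher and 9 lower of 22 measured, with a median of -0.45, and plasma cell markers 1 higher and 5 lower of 7. The summed signal of the B lineage list was 194 to 202 in WT and 268 to 283 in Lyn-KO, the other way from its median. The 4 members called higher include Spib and Blnk, which dendritic cells express too, and the largest rise in the list was 0.84. On the Lyn-KO arrays, 4 members were not well above background on any. The B lineage and plasma cell genes named next were all lower, and whether other cells of the culture express them was not tested. Pou2af1, a coactivator of B cells, lay at 3.60, 3.78 and 4.23 in WT and at -0.77, -0.99 and -1.64 in Lyn-KO, 32.1-fold lower (-5.01 ± 0.366). Jchain, which joins secreted antibody, lay at 4.20, 4.60 and 5.03 in WT and at 0.97, 0.67 and 0.59 in Lyn-KO (-3.87 ± 0.303). Mzb1, a chaperone of antibody-secreting cells, was lower (-4.12 ± 0.332). Ms4a1, the CD20 gene and a defining marker of B cells, lay at 1.68, 1.78 and 2.17 in WT and at 0.66, 0.94 and 0.92 in Lyn-KO (-1.03 ± 0.19). Cd79a, a subunit of the B cell receptor, and Bank1, a B cell scaffold protein, were not well above background on any Lyn-KO array and were at least 3.29-fold and at least 4.18-fold lower. Vpreb3, of immature B cells, was lower (-1.45 ± 0.201), and Tnfrsf13c, the receptor of the survival factor BAFF, was lower (-1.51 ± 0.113).

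**Figure D3:**
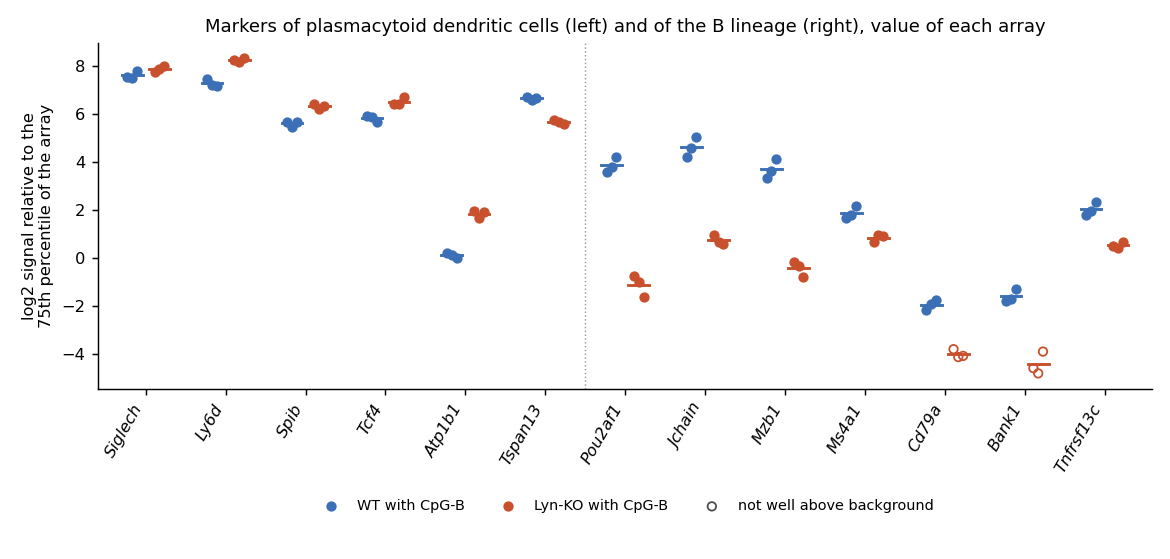
Log2 signal relative to the 75th percentile of the array for 6 markers of plasmacytoid dendritic cells (left of the dotted line) and 7 of B lineage and plasma cells (right) in the 3 WT (blue) and 3 Lyn-KO (red) arrays with CpG-B; open circles mark groups with no array well above background. All 7 markers on the right are lower in Lyn-KO and were picked from longer lists. In those lists 4 of 22 B lineage and 1 of 7 plasma cell markers were called higher (13.9% of all features). Siglech is the 1 gene shown whose groups overlap.

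Markers of the other cell types were divided. For type 1 conventional dendritic cells, 5 of 16 markers were higher and 3 lower (median 0.06), and Xcr1, the receptor of Xcl1, was well above background on 1 of 3 WT arrays and all 3 Lyn-KO arrays and rose by 1.80 ± 0.236. For type 2 conventional dendritic cells, 4 of 15 were higher and 4 lower (median 0.04), with Clec4a4, an inhibitory lectin, higher by 1.05 ± 0.0775. Neutrophil markers were 1 higher and 5 lower of 17 (median -0.71), including Camp, a granule peptide (-0.90 ± 0.219), and Lcn2, which the acute phase list also holds. Monocyte and macrophage markers were 2 higher and 6 lower of 24 (median -0.22), and Mrc1, the mannose receptor, fell from -0.86, -0.71 and -0.60 to -2.87, -2.97 and -2.72 (-2.13 ± 0.219). Basophil and mast cell markers were 0 higher and 3 lower of 10, eosinophil markers 1 higher and 3 lower of 8, erythroid and megakaryocyte markers 2 higher and 3 lower of 10, and NK and T cell markers 1 higher and 1 lower of 13.

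Some genes with the greatest changes lay outside these groups. Syt10, of the synaptotagmin family of calcium sensors, stood at -0.81, 0.72 and 2.40 in the Lyn-KO arrays and not well above background in WT, at least 24.0-fold higher, with Lyn-KO arrays far apart from each other. Vegfd, a growth factor of lymph vessels, was at least 2.91-fold higher, and Dcstamp, a membrane protein needed for fusion of myeloid cells, at least 4.33-fold higher. Notch3, a Notch receptor, rose from -2.10, -2.43 and -2.91 to 0.61, 0.29 and 0.53 (2.96 ± 0.256). Ctsk, the cathepsin of bone-resorbing cells, was higher by 2.25 ± 0.374. Timd2, a ferritin receptor, lay at 0.30, 0.66 and 0.94 in WT by its brighter probe. By this probe it was not well above background in Lyn-KO and was at least 19.7-fold lower. Its other probe was called lower too, by less (-2.85). Muc1, a membrane mucin, was at least 7.85-fold lower, and Alpl, an alkaline phosphatase, was lower (-2.96 ± 0.391). Of 51 measured genes within 20 Mb of Lyn on its chromosome, 7 were called higher and 9 lower, with a median of 0.02.

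The remaining lists were as follows. Oxidative phosphorylation genes were 2 higher and 2 lower of 34 measured (median 0.02), and class I presentation and immunoproteasome genes 2 higher and 1 lower of 18 (median 0.03), and quantile normalization turned the sign of both medians (-0.02 and -0.05). Glycolysis and hypoxia genes were 2 higher and 4 lower of 25 (median 0.00). Class II presentation genes were 3 higher and 0 lower of 11 (median 0.13), and ER chaperone and XBP1 genes 5 higher and 2 lower of 22 (median 0.07). STAT, SOCS and interferon receptor genes were 4 higher and 7 lower of 24 (median -0.03), and nucleic acid sensors 1 higher and 4 lower of 17 (median -0.06). Lysosome and cathepsin genes were 9 higher and 6 lower of 30 (median 0.06), C-type lectins 9 higher and 2 lower of 20 (median 0.37), and genes of the interleukin 12 and 18 axis 2 higher and 4 lower of 13 (median -0.24).

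Without stimulation, limma called 925 features (4.58%) in Lyn-KO against WT, 1.83% of all higher and 2.75% lower. Only these groups in the fit gave 321 calls, no filter on dim probes gave 609, and leaving out the unstimulated Lyn-KO array of slide 3 gave 593. The difference of the Lyn-KO effect between the states was called for 2237 features (11.1%), 6.05% toward a higher value with CpG-B and 5.02% toward a lower one, and for 1395 with no filter on dim probes. Among the 5084 features called with CpG-B, it was called for 1968, and in 1925 of these the change was larger in size with CpG-B. These features were chosen by their call with CpG-B, which favours a larger change there. The 1925 therefore do not compare the size of the effect between the states. In both states 550 were called, 482 in the same direction and 68 in opposite ones. Of the 14 interferon genes the difference was called for 13, all toward a higher value with CpG-B, and of the 60 interferon-stimulated genes for 28, all in the same direction. Without stimulation Ifnb1 was lower in Lyn-KO (-0.89 ± 0.25, adjusted p = 0.0498), and many alpha interferons were at or near background there. Lta was lower without stimulation (-0.73 ± 0.182) and higher with it, and Cd70 changed in the same way (-1.16 ± 0.122 without stimulation). Pou2af1, Jchain and Mzb1 were lower in both states, by -4.70 ± 0.366, -3.46 ± 0.303 and -3.88 ± 0.332 without stimulation, and no difference between the states was called for them (adjusted p = 0.791, 0.634 and 0.824). Ms4a1 was at -3.47 ± 0.19 without stimulation, further from WT than with CpG-B, and this difference was called.

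**Figure D4:**
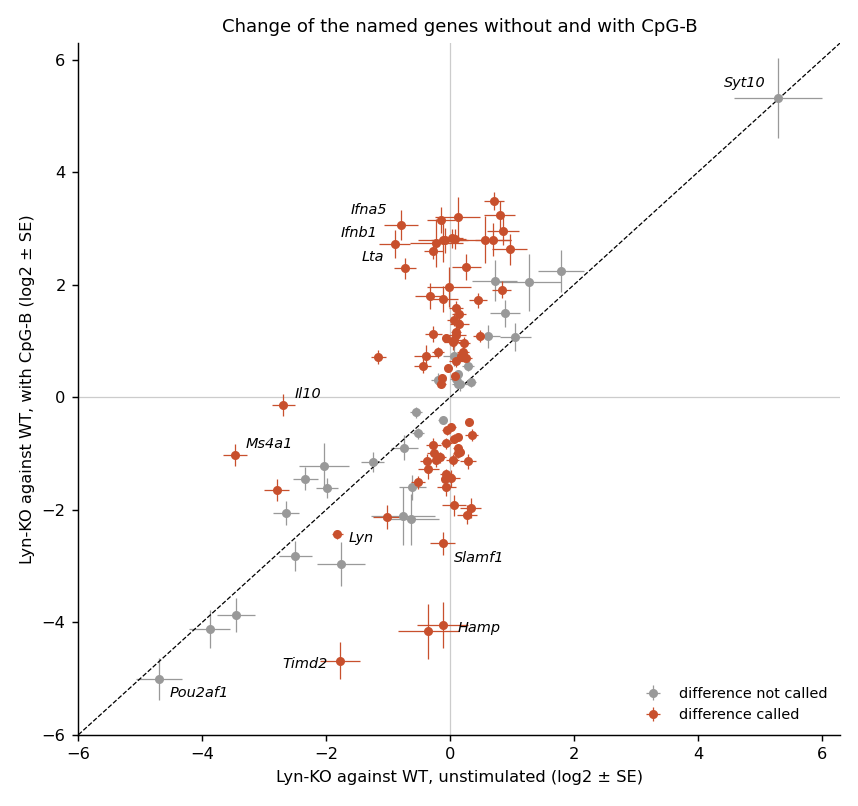
Change in Lyn-KO against WT (log2, ± SE of the limma fit, 3 arrays per group) of the named genes without stimulation (horizontal) and with CpG-B (vertical), some of them not well above background without stimulation; red points are genes whose difference between the states was called, and the dashed line marks equal changes. Most interferon genes lie far above the line, with Ifnb1 at -0.89 and 2.72. Ifnl3 is closer to the line, at 0.10 and 0.65, and Pou2af1 lies near it at -4.70 and -5.01.

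With CpG-B, DKO against Irf5-KO arrays asked what loss of Lyn changes in cells without Irf5. The Irf5 signal did not check these labels, since it was not lower in arrays labelled Irf5-KO, so the groups are named as labelled. limma called 6677 features (33.0%) there, 18.1% higher and 14.9% lower. The difference from the effect in Irf5-positive cells was called for 730 (3.61%), 1.97% higher and 1.64% lower, for 304 with only the compared groups in the fit and for 351 with no filter on dim probes. Among the 5084 features called in Lyn-KO against WT, that difference was called for 420, and 186 of these changed more in Irf5-positive cells. Choosing features by their call in Irf5-positive cells favours a larger change there. All 14 interferon genes were called higher in DKO too, with a median of 2.53, and for none of them was a difference called. At an unadjusted p under 0.05 that count was 0 as well. Ifnb1 changed by 2.73 ± 0.25 there, and its difference between the 2 backgrounds was -0.01 ± 0.353. Pou2af1 was lower in DKO (-5.07 ± 0.366), as was Slamf1 (-2.61 ± 0.204).

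Several genes did differ by Irf5. Tbx21 was lower in Lyn-KO but higher in DKO against Irf5-KO, by 0.70 ± 0.156, a difference of -2.30 ± 0.22. Elovl6 also turned, with 0.28 ± 0.0735 in DKO, a difference of -1.73 ± 0.104. Il6 was higher in DKO by 1.20 ± 0.121 and Il10 lower (-1.74 ± 0.188), whereas neither was called in Lyn-KO. Syt10 was not called in DKO (0.85 ± 0.707, adjusted p = 0.399). Of the 16 Nrf2 targets, 6 had a difference called. For each of these the change on loss of Lyn was lower in Irf5-positive cells than in Irf5-KO cells. In DKO against Irf5-KO, 9 of the 16 were called higher, with a median of 0.57.

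**Figure D5:**
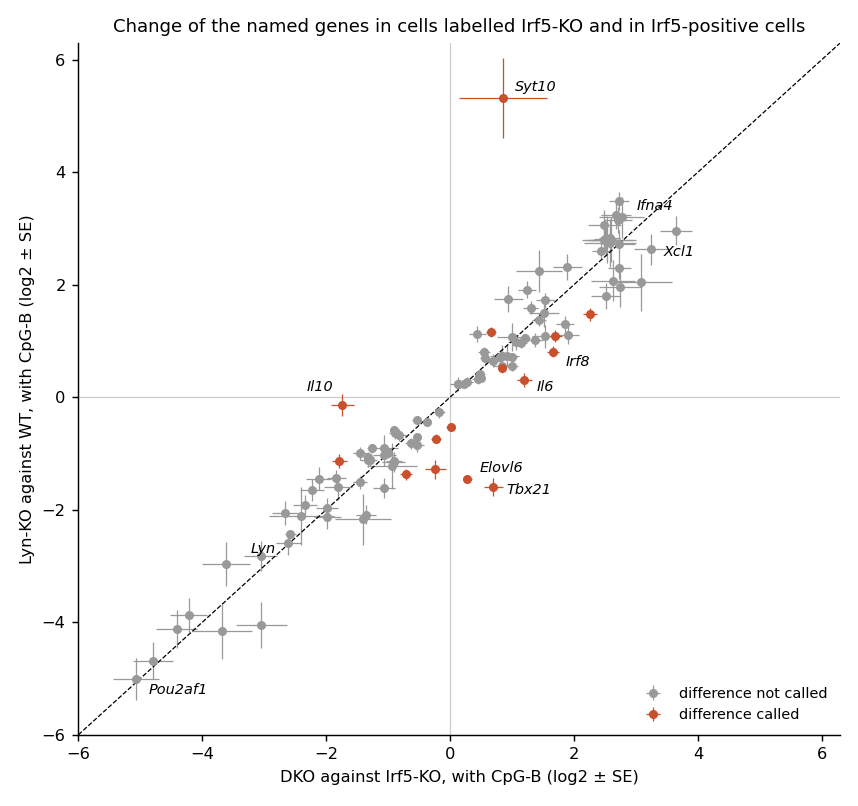
Change with CpG-B (log2, ± SE of the limma fit, 3 arrays per group) of the named genes in DKO against Irf5-KO (horizontal) and Lyn-KO against WT (vertical); red points are genes whose difference was called, and the dashed line marks equal changes. Interferon genes and Pou2af1 lie near the line, and Tbx21, Elovl6, Syt10 and Il10 lie away from it.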

How the data were processed

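RNA of 24 mouse dendritic cell cultures, 3 arrays in each of 8 groups, was measured on 1-colour Agilent arrays. Per the file headers, the authors' scanner files came from Agilent Feature Extraction 10.7.3.1, and the deposited processed signal is a background-corrected intensity per spot. The series also holds a deposited table of log2 values. Its differences between each array and the first array matched those of the scanner values within 0.0238 for 95% of values over 19900 probes. Its column medians ran from -0.273 to 0.375. Its scale is log2, its direction is that of the scanner values, and each probe is centred.

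From the processed signal, log2 values minus the 75th percentile of each array were taken, and 4351 outlier spot values were left out. Of 55681 probes, 26762 had a gene name, from the platform table updated through RefSeq (GRCm38.p6), and 28919 had none. Probes had to be well above background on every array of some group, which kept 26640, and the probe with the highest mean stood for a gene (4555 genes had several), which left 20209 features, 12648 of them named. One limma model (limma 3.58.1, R 4.3.3) held all 8 groups, which share 1 estimate of the spread, with Benjamini-Hochberg adjustment over all features. It was tested on simulated data. Promoter motifs were counted in 250 bases before each start.

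Samples were grouped by title. Named genes were the 20 called genes with the greatest change in each direction without overlap, and members of 39 gene lists (11 of cell types), from which the text gives examples; genes that were dim or whose probes disagreed were mostly left out, after their values were seen. The members and lists were chosen with earlier results of these data known. Alternatives covered normalization, background correction, filters, probes, the samples in the fit, the slide and leaving out each array.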

Additional observations from a re-analysis of the deposited data

Results flagged for a closer look

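The results below stand out because the effect of Lyn loss differed between conditions by a test of the difference itself, in limma with adjustment over all 20209 features. Between CpG-B and no stimulation 2237 features differed, and between Irf5-positive and Irf5-KO cells with CpG-B 730 did. No group had enough samples to look for single outlying arrays. For the differences by stimulation, the value is the change in Lyn-KO with CpG-B minus the change without, so a positive value lies toward Lyn-KO with CpG-B.

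Among interferon genes it was 2.87 for Ifna1, 2.11 for Ifna2, 3.08 for Ifna4, 3.85 for Ifna5, 2.96 for Ifna7, 2.91 for Ifna11 and 2.87 for Ifna12. It was 2.23 for Ifna13, 2.73 for Ifna14, 3.30 for Ifna16, 2.79 for Ifnab, 3.61 for Ifnb1 and 0.54 for Ifnl3. Without stimulation Ifna4, Ifna11, Ifna13, Ifna16, Hamp, Muc1 and Slamf1 were not well above background in either group, so for these 7 the difference is set against signals near background. The Lyn-KO arrays without stimulation were not well above background for Ifna7 and Il10 either. With CpG-B the same held for the WT arrays of Dcstamp and Vegfd and the Lyn-KO arrays of Timd2 and Muc1. For all of these genes the printed difference is a fitted value that rests on signals near background, not a measured size.

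Chemokine genes had differences of 1.12 for Ccl2, 0.95 for Ccl3, 1.49 for Ccl6, 1.06 for Ccl9, 1.31 for Cx3cl1, 1.98 for Cxcl2 and 1.67 for Xcl1. For cytokine genes they were 1.87 for Cd70, 2.55 for Il10, 0.99 for Il18, 1.40 for Il1b, 3.02 for Lta, 1.03 for Tnf and 2.05 for Tnfsf15, and in the other direction -1.16 for Il16, -2.30 for Il34 and -0.77 for Tnfsf9. Among all genes given here, the change without stimulation was the greater in size for Cd70, Il10, Ms4a1 and Scd1.

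Regulators and surface receptors were divided. Positive differences were 0.94 for Nfkbiz, 0.59 for Irf8, 1.16 for Tlr12, 0.28 for Unc93b1, 0.47 for Syk, 0.55 for Blnk, 0.60 for Lair1, 0.54 for Ptpn6, 1.00 for Cd69, 0.40 for Ifitm3 and 1.12 for Clec4a4. Negative ones were -0.81 for Tnfaip3, -1.13 for Tnip2, -1.03 for Tnip3, -2.37 for Fosl2, -1.04 for Fgr, -0.75 for Fyn, -0.62 for Lyn, -0.76 for Fcgr2b and -0.82 for Pirb. Some maturation and lymphoid activation genes lay on the same side, with -0.54 for Cd86, -0.59 for Il2ra, -1.43 for Pdcd1lg2, -2.48 for Slamf1 and -1.55 for Tbx21. The costimulation and maturation list as a whole was divided. Of its 30 measured genes, 4 had a positive difference called and 5 a negative one (6.05% and 5.02% of all features).

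Among markers of plasmacytoid cells the values were 1.27 for Atp1b1, 0.74 for Ly6d, 0.49 for Spib, 0.43 for Tcf4 and -1.14 for Tspan13. Among B lineage markers they were 2.43 for Ms4a1 and -0.99 for Tnfrsf13c, and Xcr1 of type 1 conventional dendritic cells stood at 2.13. Enzymes and stress genes gave 1.86 for Ch25h, 1.07 for Lpl, 1.15 for Scd1, 1.33 for Srxn1, -1.37 for Elovl6, -1.31 for Gclc and -0.92 for Osgin1, and for serine synthesis and replication -0.88 for Phgdh, -0.54 for Psat1, -0.91 for Psph and -0.74 for Rrm2. The remaining values were -3.92 for Hamp, -1.45 for Hp, -1.98 for Saa1, -1.11 for Mrc1, -3.81 for Muc1, -2.90 for Timd2, 2.44 for Dcstamp, 2.11 for Notch3 and 2.79 for Vegfd.

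By Irf5, the value is the change in Lyn-KO against WT minus that in DKO against Irf5-KO, both with CpG-B and as labelled. It was 0.50 for Ccl9, 0.66 for Fcgr2b, 1.59 for Il10 and 4.47 for Syt10. Syt10 was not well above background in WT, so its value is fitted against signals near background and is not a measured size. It was -0.54 for Cd86, -1.73 for Elovl6, -0.67 for Gclc, -0.89 for Il6, -0.85 for Irf8, -0.62 for Lair1, -1.04 for Osgin1, -0.33 for Ptpn6, -0.78 for Srxn1, -2.30 for Tbx21 and -0.51 for Tnfaip3.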

How the results depend on the processing

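The count of 5084 features called in Lyn-KO against WT with CpG-B changed over the alternatives. It lay between 3777 (only these groups in the fit) and 6265 (every probe on its own), and between 4063 and 4734 without 1 array. Some alternatives tested other totals than 20209. Every probe on its own had 26640, no filter on dim probes 37109 and only probes detected on all arrays 15793. The share of the called features that were higher ran from 49.3% to 57.2%, against 55.4%. Calls of at least 2-fold fell from 880 to 463 with normexp and quantile normalization together and to 352 with only probes detected on all arrays. Without stimulation, 925 calls became 609 with no filter on dim probes and 321 with only the groups compared, and 593 to 1063 without 1 array. The differences by stimulation, 2237, became 1395 with no filter, and 1748 to 2245 without 1 array. The differences by Irf5, 730, became 351 with no filter and 304 with only the groups compared, and 490 to 922 without 1 array. DKO against Irf5-KO gave 5504 to 6305 calls without 1 array, against 6677. The cause of these shifts was not tested.

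The slide number was also used as a replicate block. Deviations of the WT and Lyn-KO arrays with CpG-B correlated at 0.18, 0.0623 and 0.0137 on the same slide. Between different slides they correlated at -0.123 to 0.0603. The main fit did not take the numbers as a pairing, and a slide effect was not tested. The block gave 5800 calls with CpG-B, 1126 without, 2632 and 978 differences by stimulation and Irf5, and 7349 in DKO.

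Of 1800 values of the 115 named genes under the alternatives, 31 in 8 genes (Irf5, Ifnk, Ifnl3, Ccl8, Ifih1, Ifitm3, Bst2 and Tlr9) no longer passed the threshold, and none reversed. These genes were chosen after their values were seen, and dim genes or genes whose probes disagreed were mostly left out. That choice favours stable calls, so the counts do not describe the other features. Of 624 list medians, 582 moved by less than the spread between slides. The interferon median was 0.65 with only probes detected on all arrays, where 1 gene was left. The stricter letters GAAAGTGAA were in 0.481% of all windows, 0.64% of tested ones, 0.735% of those called higher, 0.593% of those called lower and 53.8% of interferon windows. The letters GGGACTTTC were in 0.289%, 0.344%, 0.343%, 0.485% and 0%. Signals near background limit what can be said of dim genes.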
